A study of Mus musculus with 5 samples.

Results

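The carboxylesterases described here were 10 genes of the mouse Ces family: Ces1b, Ces1c, Ces1d, Ces1e, Ces1f, Ces1g, Ces2a, Ces2e, Ces3a and Ces3b. They were found as the rows of the count table with these symbols, 10 of the 46983 genes listed, and all 10 were among the 16436 genes with enough counts to be tested. The members were chosen by measured values of these samples, their lower levels in the knockout than in the heterozygous group, so that difference is given as a description, with no test. RNA was sequenced from Kupffer cells, the resident macrophages of the liver, of mice with 1 or no working copy of Id3, a gene whose small helix-loop-helix product pairs with E proteins and blocks their binding to DNA. The heterozygous group (Id3 +/-) had 3 samples, replicates 1, 2 and 3, and the knockout group (Id3 -/-) had 2, replicates 2 and 3. The labels name no wild-type samples, age, Cre or other agent, describe mechanical disruption of the tissue and name no sort of the cells, and do not explain the "3w" in the column names. The labels do not say whether the samples came from separate mice, so a p-value sets the difference only against the spread of these libraries, and that spread may be technical.

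Carboxylesterases are serine hydrolases of the endoplasmic reticulum and plasma that split esters, amides and thioesters in drugs, toxins and lipids. In the liver they are made mainly by hepatocytes, where some members mobilise stored triacylglycerol for the assembly of very low density lipoprotein. Mice carry more copies than humans because the genes were duplicated in tandem, and the copies fall into subfamilies named Ces1, Ces2 and Ces3. In the annotation the Ces1 genes lie side by side on the minus strand of chromosome 8 in a first cluster with Ces5a, and the Ces2, Ces3 and Ces4a genes on the plus strand in a second cluster.

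How alike the members are bears on how their reads can be counted, because a read that fits more than 1 gene is not assigned by a counter that keeps unique alignments. Across aligned coding sequences (GENCODE M21), Ces3a and Ces3b were 95.3% identical, Ces1b and Ces1c 88.7%, and Ces2a and Ces2e 83.1%. The 15 pairs within Ces1 ranged from 72.0% to 88.7%, and the 28 pairs between subfamilies from 53.9% to 58.6%. Each subfamily therefore formed a separate block of identity.

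**Figure D1:**
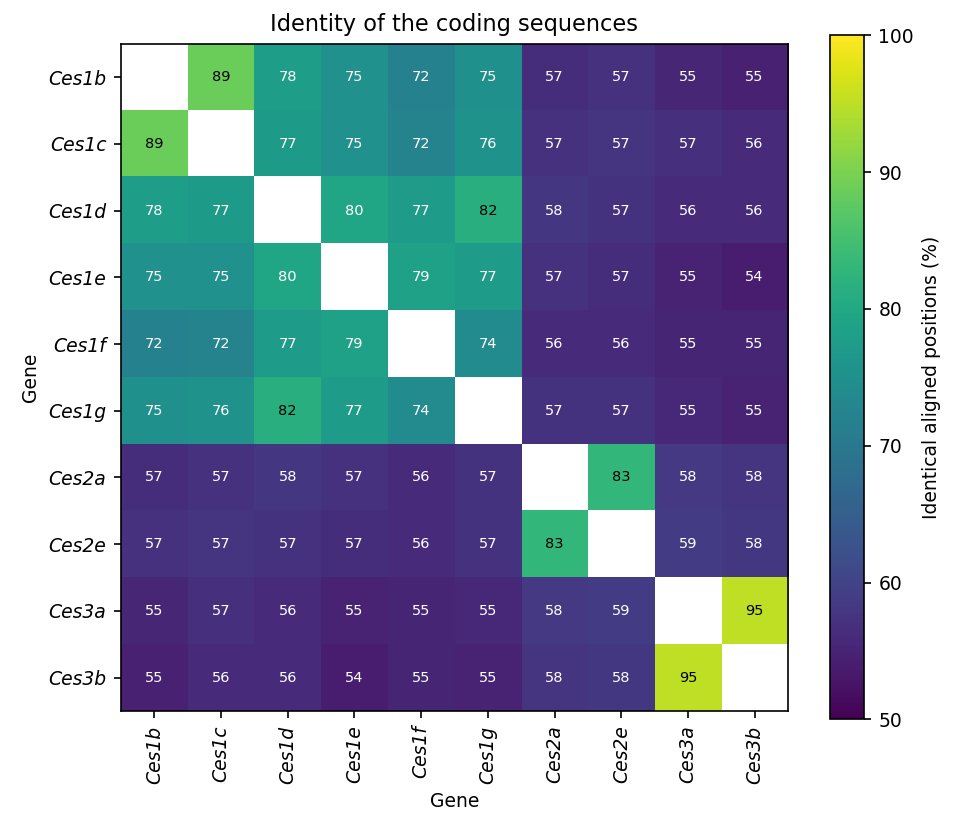
Percent of aligned coding positions that are identical for each pair of members, with genes in annotation order on both axes and colour from 50 to 100%. The Ces3a and Ces3b pair stands at 95.3%, and pairs between subfamilies lie between 53.9% and 58.6%.

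The stretches below, read on the coding strand from the first base of the start codon, show where the most alike pair can and cannot be told apart. The first is a stretch of 90 bases, coding positions 105 to 194, with 0 differences between the genes. The following lines are coding positions 1 to 90 of each gene, the least alike stretch of that length, with the 15 differing bases in capitals.
Ces3a and Ces3b, shared: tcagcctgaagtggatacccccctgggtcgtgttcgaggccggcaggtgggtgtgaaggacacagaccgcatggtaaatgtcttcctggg
Ces3a, start: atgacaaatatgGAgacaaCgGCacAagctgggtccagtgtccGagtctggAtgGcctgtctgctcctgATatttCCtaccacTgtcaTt
Ces3b, start: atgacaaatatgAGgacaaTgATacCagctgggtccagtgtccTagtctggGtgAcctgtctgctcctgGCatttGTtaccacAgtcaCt
The longest exact stretch shared by Ces3a and Ces3b was 194 bases. Ces1d and Ces1f, a pair of triacylglycerol hydrolases of the first cluster, differed at 6 bases, in capitals, in their most alike 90 bases (coding positions 131 to 220).
Ces1d: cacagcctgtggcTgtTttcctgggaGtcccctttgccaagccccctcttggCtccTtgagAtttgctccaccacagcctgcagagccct
Ces1f: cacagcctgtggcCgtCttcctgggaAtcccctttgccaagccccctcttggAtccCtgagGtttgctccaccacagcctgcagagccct
The share of each transcript's 50-base words found in no other annotated gene was 69.1% in Ces3a, 73.9% in Ces3b, 77.8% in Ces2a, 83.0% in Ces1c and 88.4% in Ces1b. For Ces3a the remaining 30.9% was found in Ces3b. For Ces2a, 20.9% of the words were also in Gm7208, a predicted gene that has no row in the count table. The other 5 members, Ces1d, Ces1e, Ces1f, Ces1g and Ces2e, had 96.6% to 98.7% unique words. With words of 100 bases every member had at least 89.3%, so the share that can be assigned depends on the read length, a value not stated in the sources used here.

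Promoter windows of 250 bases before the start, taken from RefSeq (GRCm38.p6), were at hand for 7 of the 10 members and not for Ces1d, Ces1f and Ces3a. Short words were searched on both strands: TATAAA, the core of a TATA box, GTTAAT, part of the site of the hepatocyte factor HNF1, AGGTCA, a half-site of nuclear receptors, and the E-boxes CAGGTG and CAGCTG that E proteins bind. Ces3b, the member with the largest difference, held TATAAA 30 bases and GTTAAT 56 bases before the start, both in capitals in its window at chr8:105083505-105083754 on the plus strand.
Ces3b promoter: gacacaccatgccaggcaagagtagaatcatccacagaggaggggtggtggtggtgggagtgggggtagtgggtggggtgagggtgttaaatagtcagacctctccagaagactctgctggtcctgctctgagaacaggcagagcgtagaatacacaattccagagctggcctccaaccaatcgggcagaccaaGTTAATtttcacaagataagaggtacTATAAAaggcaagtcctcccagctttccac
Ces1g, one of the members with the smallest difference, held TATAAA 26 bases before the start, read as TTTATA (capitals) on the gene's strand, at chr8:93337210-93337459 on the minus strand.
Ces1g promoter: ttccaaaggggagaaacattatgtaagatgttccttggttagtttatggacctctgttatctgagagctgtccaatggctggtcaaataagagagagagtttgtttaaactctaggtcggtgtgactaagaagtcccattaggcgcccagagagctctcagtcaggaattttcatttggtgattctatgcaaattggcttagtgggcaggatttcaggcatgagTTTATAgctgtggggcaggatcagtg
Ces2a held AGGTCA, and no window of the 7 genes held either E-box. No match overlapped another. Among 32851 windows of the same length, TATAAA was found in 12.4%, GTTAAT in 6.43%, AGGTCA in 14.0%, CAGGTG in 17.2% and CAGCTG in 13.0%. A match is only a match of letters.

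The libraries held 74.8M to 80.9M counts in genes and 20351 to 21187 detected genes. The targeted gene followed the labels: Id3 stood at 229, 221 and 256 CPM in the heterozygous and 1.01 and 1.421 CPM in the knockout libraries. The level unit used throughout is TMM-normalised CPM, counts scaled to a library's total times its TMM factor (0.974 to 1.02). The 16 Kupffer cell markers were all present and summed to 68640 to 74410 CPM in the heterozygous and 74730 and 82020 CPM in the knockout libraries. The 32 hepatocyte markers were present too, and their sum fell from 34520, 38050 and 32260 CPM to 6906 and 15650 CPM, with 24 called lower, 0 higher and 8 not called by edgeR's quasi-likelihood test (adjusted p under 0.05). The count called lower was 12 without heterozygous replicate 1 and 10 without heterozygous replicate 2. Over all genes, 344 of 15972 and 248 of 16022 were called lower in these settings, against 1644 of 16436 with all libraries. The fold of the sum between group means was 3.099, against 4.71 for the sum of the 10 carboxylesterases. In bulk RNA, fewer cells of a type and less RNA per cell cannot be told apart, and the part of hepatocyte RNA in the carboxylesterase differences was not tested. Reads with more than 1 alignment took 38.3% to 41.0% of all alignments in heterozygous libraries, against 32.3% and 34.1% in knockout libraries.

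All 10 carboxylesterases were lower in both knockout libraries than in every heterozygous library, and 8 of the 10 lay past the threshold that edgeR set for all genes (adjusted p under 0.05). This count describes the members chosen for being lower and is no test of them. It was 3 without heterozygous replicate 1 and 3 without heterozygous replicate 2. Calls fell over the whole table in these settings too, to 344 of 15972 and 248 of 16022 genes called lower. The members' log2 fold changes (knockout minus heterozygous, here and below) ran from -5.09 for Ces3b to -1.11 for Ces2a, with a median of -2.16, against -0.02 over all genes tested. Of all genes tested, 10.0% were called lower, 6.41% higher, and 26.9% had both knockout libraries below all heterozygous libraries. Because the members were proposed for this difference, nothing is read from these shares. Summed over the members, the level was 1437, 1519 and 1238 CPM in the heterozygous and 173 and 420.4 CPM in the knockout libraries.

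**Figure D2:**
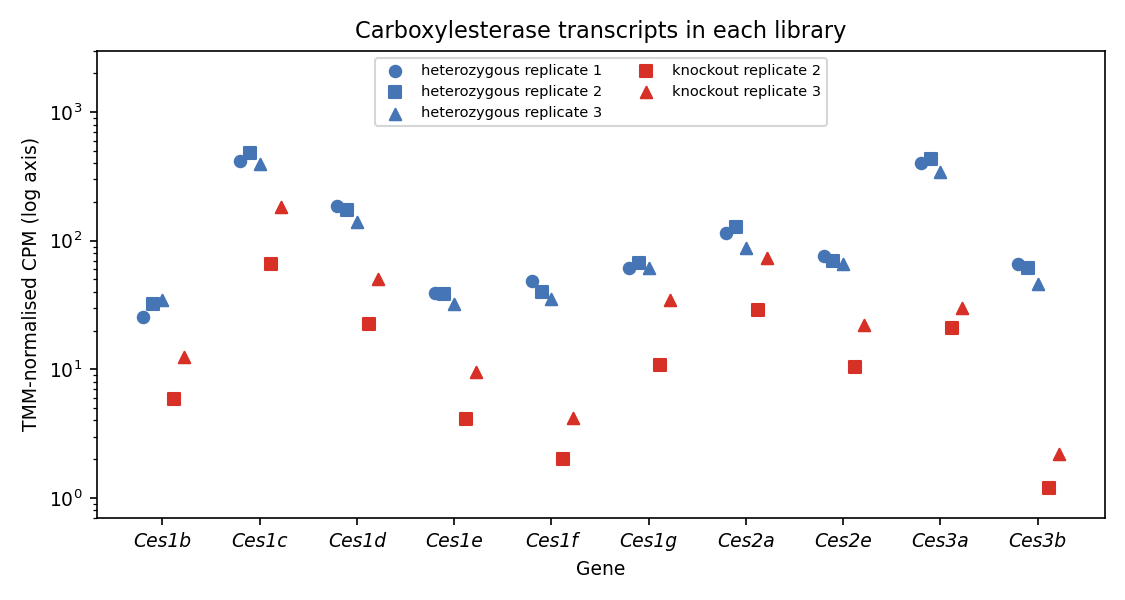
Level of each carboxylesterase in each library (TMM-normalised CPM, log axis), blue for 3 heterozygous and red for 2 knockout libraries, with the marker shape giving the replicate number. For every gene the red points lie below the blue ones, and knockout replicate 2 lies below knockout replicate 3.

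Ces1 was the largest subfamily, with 6 members that summed to 780, 830 and 696 CPM in the heterozygous and 111 and 293 CPM in the knockout libraries, 3.80-fold lower by group means. Ces1c, a plasma esterase that liver cells secrete and that hydrolyses many ester drugs in mouse blood, stood at 418, 479 and 392 CPM in the heterozygous and 66.2 and 182 CPM in the knockout libraries. Its groups did not overlap, the knockout mean was 3.47-fold lower, and the log2 fold change was -1.79 ± 0.41 (SE). Knockout replicate 2 was 6.49-fold and knockout replicate 3 was 2.36-fold below the heterozygous mean, so the knockout libraries differed from each other by 2.74-fold. Ces1b, its closest relative in sequence, stood at 25.5, 32.3 and 34.8 CPM against 5.89 and 12.4 CPM. Its log2 fold change was -1.75 ± 0.34 (SE), close to that of Ces1c. The ratio of Ces1c to Ces1b counts was 16.4, 14.8 and 11.2 in heterozygous against 11.2 and 14.6 in knockout libraries, so the ratios of the genotypes overlapped.

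Ces1d is a triacylglycerol hydrolase of the hepatocyte endoplasmic reticulum and of adipose tissue. It stood at 188, 173 and 141 CPM in the heterozygous and 22.3 and 50.2 CPM in the knockout libraries. The knockout mean was 4.61-fold lower, with a log2 fold change of -2.20 ± 0.35 (SE). Ces1f, which carries out the same kind of reaction, stood at 48.3, 40.2 and 35.3 CPM against 2.00 and 4.16 CPM. It was 13.4-fold lower, with a log2 fold change of -3.74 ± 0.36 (SE), the largest difference within Ces1. The ratio of Ces1d to Ces1f was 3.89, 4.30 and 3.99 in heterozygous against 11.2 and 12.1 in knockout libraries. Ces1f thus lay further below its heterozygous level than Ces1d in each of the knockout libraries.

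Ces1e is egasyn, the protein that holds beta-glucuronidase in the endoplasmic reticulum. It stood at 39.5, 38.6 and 32.2 CPM in the heterozygous and 4.08 and 9.51 CPM in the knockout libraries, 5.41-fold lower, with a log2 fold change of -2.44 ± 0.37 (SE). The gene of its partner, Gusb, was not called by edgeR: it stood at 368, 381 and 351 CPM against 508 and 434 CPM, with a log2 fold change of 0.36 ± 0.10 (SE; edgeR adjusted p = 0.0563). Kdelr1, for a receptor that returns proteins with a retention signal to the endoplasmic reticulum, stood at 91.7, 88.6 and 105 CPM against 101 and 136 CPM and was not called either (log2 fold change 0.32, edgeR adjusted p = 0.207). Gusb was called higher by DESeq2, by limma-voom, with upper quartile or library size scaling and with a filter of 1 CPM in 2 samples. It was not called with RLE scaling, no low count filter, the replicate number as a block, or without any single heterozygous replicate. Nor was it called with offsets for transcript length and GC content, where its log2 fold change was 0.19. That value was 0.24 without knockout replicate 2 and 0.48 without knockout replicate 3. Kdelr1, Kdelr2 and Kdelr3 were not called by edgeR, DESeq2 or limma-voom. Egasyn was thus lower in both knockout libraries, while Gusb was above every heterozygous library in both.

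Ces1g, which acts in hepatic lipid handling, was 1 of the 2 members that were not called. It stood at 61.5, 67.1 and 61.0 CPM in the heterozygous and 10.8 and 34.9 CPM in the knockout libraries, a log2 fold change of -1.47 ± 0.46 (SE). The heterozygous libraries were close together, with a coefficient of variation of 5.35%, and the knockout libraries lay 3.24-fold apart, the widest gap among the members. The fold below the heterozygous mean was 5.86 in knockout replicate 2 and 1.81 in knockout replicate 3.

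Of the Ces2 subfamily, Ces2a and Ces2e summed to 191, 198 and 154 CPM in the heterozygous and 39.1 and 95.4 CPM in the knockout libraries, 2.69-fold lower. Ces2 enzymes of liver and intestine hydrolyse drug esters and acylglycerols. Ces2a, the other member not called, stood at 115, 128 and 88.2 CPM against 28.8 and 73.1 CPM, with a log2 fold change of -1.11 ± 0.39 (SE). The groups were separated by little: the lowest heterozygous library was 1.21-fold above the highest knockout library. Ces2e stood at 76.3, 69.8 and 66.1 CPM against 10.3 and 22.3 CPM, 4.33-fold lower, with a log2 fold change of -2.12 ± 0.32 (SE). The ratio of Ces2a to Ces2e was 1.504, 1.83 and 1.34 in heterozygous against 2.78 and 3.28 in knockout libraries, with no overlap.

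The Ces3 genes, which encode liver esterases, had the lowest ratios of the knockout to the heterozygous group mean. In knockout replicate 2 alone, Ces1f lay 20.6-fold and Ces3a 18.6-fold below the heterozygous mean. Ces3a stood at 400.4, 430.4 and 342 CPM in the heterozygous and 21.0 and 30.2 CPM in the knockout libraries, 15.3-fold lower, with a log2 fold change of -3.93 ± 0.21 (SE). Every heterozygous library was at least 11.35 times the higher knockout library. Ces3b stood at 66.0, 61.2 and 46.3 CPM against 1.19 and 2.20 CPM, 34.1-fold lower, with a log2 fold change of -5.09 ± 0.34 (SE). These levels rested on 5421, 4833 and 3375 counts in the heterozygous and 90 and 170 counts in the knockout libraries, above the floor of 3 counts per library that an undetected gene allows. The ratio of Ces3a to Ces3b was 6.07, 7.03 and 7.39 in heterozygous against 17.6 and 13.7 in knockout libraries. Since 30.9% of the 50-base words of Ces3a occur in Ces3b, reads from one can be lost or misplaced between them, and their separate levels are uncertain. Their sum, which misplacement between them leaves unchanged, was 466, 492 and 389 CPM in the heterozygous and 22.2 and 32.4 CPM in the knockout libraries, 16.5-fold lower.

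Per kilobase of transcript, the order of the members changed between genotypes. In the heterozygous libraries Ces1c was highest at 235 CPM per kb (range 214 to 262), followed by Ces3a at 191 (167 to 210.4), Ces1d at 83.4 (70.3 to 93.6) and Ces2a at 56.3 (45.0 to 65.2). The ranges of these 4 did not overlap with each other or with those below on this scale of full transcript length. Per kilobase of unique 50-base words, a scale added after the values were seen, Ces1c (258 to 315) overlapped Ces3a (242 to 304.5), and Ces1d (71.2 to 94.8) overlapped Ces2a (57.9 to 83.8). The other 6, Ces1g (26.5), Ces2e (26.2), Ces3b (24.1), Ces1f (21.4), Ces1e (17.7) and Ces1b (15.7 CPM per kb), had ranges that overlapped from each neighbour to the next. In both knockout libraries Ces1c was still first, at 36.2 and 99.3 CPM per kb, and Ces2a was second, at 14.7 and 37.3. Ces3a stood at rank 4, with 10.3 and 14.7 CPM per kb, and Ces3b at rank 10, with 0.497 and 0.914 CPM per kb. On the scale of unique words, Ces3a (14.9) lay above Ces1d (11.3) in knockout replicate 2. In knockout replicate 3 it lay below, at 21.3 against 25.4. The rank of Ces3a in knockout replicate 2 thus depends on the scale. Of the summed CPM of the members, Ces3a made up 27.6% to 28.3% in heterozygous against 12.2% and 7.17% in knockout libraries. The share of Ces2a was 7.13% to 8.41% in heterozygous against 16.7% and 17.4% in knockout libraries.

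The summed hepatocyte markers were also lower in both knockout libraries, so each member was also set against their sum in the same library. Their 32 log2 fold changes ran from -2.96 (Fga, a fibrinogen chain) to 0.33 (Apoc3, an apolipoprotein), with a median of -1.66. In knockout replicate 3, Apoa2 (1346 CPM), Apoc3 (147 CPM) and Ttr (411 CPM) lay above every heterozygous library. In knockout replicate 2 the same genes lay below every heterozygous library, at 484, 46.8 and 114 CPM. Their log2 fold changes were 0.47, 0.93 and 0.54 without knockout replicate 2. Without knockout replicate 3 they were -0.99, -0.71 and -1.30. Ces1f, Ces3a and Ces3b lay below all 32 markers, while Ces2a lay above 23 of them and Ces1g above 19. Among the 16436 genes tested, Ces1f, Ces3a and Ces3b ranked 172, 158 and 103 from the lowest log2 fold change. Per unit of the marker sum, Ces3b stood in knockout replicates 2 and 3 at 10.5% and 8.50% of the heterozygous mean, Ces3a at 27.2% and 17.3%, and Ces1f at 24.5% and 22.5%. Ces1e stood at 56.2% and 57.8%, Ces1d at 67.7% and 67.1%, and Ces2e at 73.8% and 70.2%. For these 6 genes the knockout ratios lay below every heterozygous ratio. Ces1c stood at 78.1% and 94.6%, also below every heterozygous ratio. Ces1b stood at 95.9% and 89.4% and Ces1g at 86.2% and 123%, both without separation of the genotypes. Ces2a stood at 133% and 149%, above every heterozygous ratio. Against albumin alone, Ces3b stood at 12.8% and 9.44%, Ces3a at 33.3% and 19.1%, Ces1f at 29.99% and 24.9%, and Ces2a at 163% and 165%. On the albumin scale Ces1c stood at 95.3% and 104.7% and Ces2e at 89.99% and 77.7%, and for both genes the genotypes overlapped. The separation of Ces1c and Ces2e seen with the marker sum thus depends on the denominator. The members were chosen for being lower in the knockout, and the share of all genes separated on these scales was not computed. Nothing is therefore read from the separations. By log2 fold change, 4 of the 32 markers lay below Ces1e, 6 below Ces1d, 7 below Ces2e and 12 below Ces1c.

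**Figure D3:**
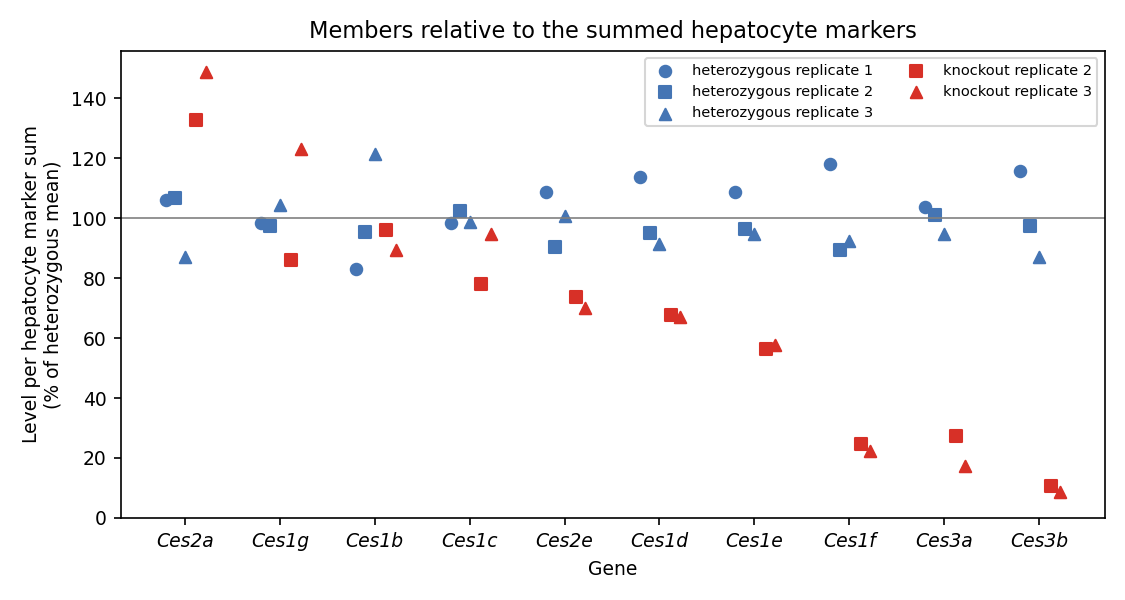
Level of each carboxylesterase divided by the summed level of 32 hepatocyte markers in the same library, as percent of the mean of the 3 heterozygous libraries (blue heterozygous, red knockout). Ces1f, Ces3a and Ces3b lie at 27.2% or less in both knockout libraries, and Ces2a lies at 133% and 149%.

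The knockout libraries also differed from each other in the hepatocyte markers. The summed level of these was 2.27 times as high in knockout replicate 3 as in knockout replicate 2, and the single markers ran from 1.19 to 3.60 times. The members ran from 1.44 times for Ces3a and 1.84 times for Ces3b to 3.24 times for Ces1g. Every member was thus higher in knockout replicate 3 than in knockout replicate 2, as was every hepatocyte marker.

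Other carboxylesterases with rows in the table were mostly near 0. Of 10, only Ces4a, Ces2c and Ces2g had enough counts to be tested, and all 3 were called lower. Ces4a and Ces2c passed the filter on low counts through the heterozygous libraries, where they were higher, so nothing is read from this count. Ces4a stood at 3.89, 7.01 and 4.02 CPM in the heterozygous and at 0.186 and 0 CPM in the knockout libraries (14 and 0 counts), with a log2 fold change of -5.73 ± 1.07 (SE) that was -4.72 without knockout replicate 3 and -11.6 without knockout replicate 2, a fitted value that is no bound because the library left has 0 counts. Ces2c, an acylglycerol hydrolase with 57.8% unique 50-base words, stood at 1.16, 1.57 and 1.40 CPM against 0.0265 and 0.181 CPM, with a log2 fold change of -3.71 ± 0.82 (SE) that was -2.92 without knockout replicate 2 and -5.60 without knockout replicate 3. Ces2g stood at 18.5, 24.6 and 20.8 CPM against 5.65 and 10.6 CPM, with a log2 fold change of -1.39 ± 0.30 (SE, edgeR adjusted p = 0.0308). The count called lower by edgeR was 0 without heterozygous replicate 1 and 0 without heterozygous replicate 2, with 3 in each at an unadjusted p under 0.05, and 1 (Ces4a) without heterozygous replicate 3 or without knockout replicate 2. Ces1a, Ces1h, Ces2f and Ces2h had at most 5 counts in any library, Ces2b had 34 counts in heterozygous replicate 2 and at most 1 elsewhere, and Ces5a and Ces2d-ps had 0 in all. Along the clusters, members lay next to genes with few or no counts: Ces1a and Ces1h flank the Ces1 members, and Ces2b and Ces2f lie between or beside Ces2a, Ces2e and Ces2g.

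**Figure D4:**
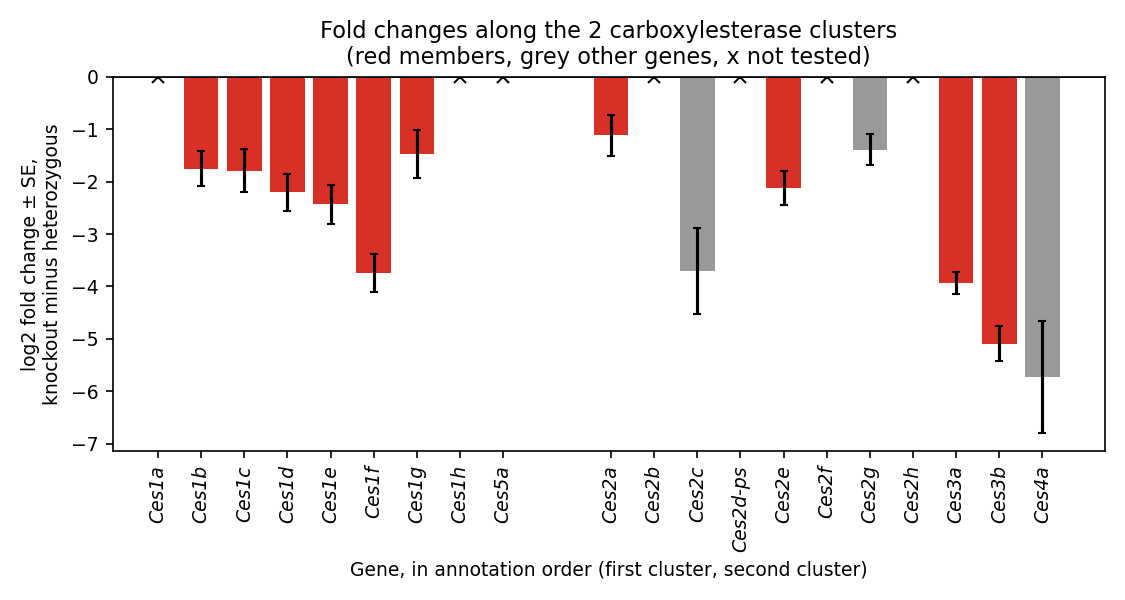
Log2 fold change, knockout minus heterozygous, with its SE for each carboxylesterase in annotation order along the first and second cluster, red for the 10 members, grey for other genes and a cross for genes with too few counts. Every tested gene lies below 0, from -1.11 (Ces2a) to -5.73 (Ces4a).

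Enzymes with related reactions were read from lists outside the family. Of 15 tested genes on the list of lipid ester hydrolases, 4 were called lower, 1 higher and 10 were not called. Their median log2 fold change was -0.09. The list also holds G0s2 and Abhd5, which regulate the lipase Pnpla2 and are not lipid hydrolases themselves, and neither was called by edgeR. Over all genes tested, 10.0% were called lower and 6.41% higher. Aadac, an arylacetamide deacetylase of hepatocytes that also acts on lipid esters, fell from 74.2, 68.2 and 60.4 CPM to 7.65 and 19.8 CPM (log2 fold change -2.30, adjusted p = 0.0185 in edgeR). Lipc, hepatic lipase, fell from 37.1, 35.5 and 26.4 CPM to 5.58 and 10.7 CPM (log2 fold change -2.02, adjusted p = 0.0158 in edgeR). Mgll, which splits monoacylglycerol, fell from 56.7, 44.4 and 37.8 CPM to 15.6 and 19.6 CPM (log2 fold change -1.40, adjusted p = 0.0144 in edgeR), and Nceh1, a cholesteryl ester hydrolase, was also called lower (log2 fold change -0.68) but not without heterozygous replicate 1 or 2 or without either knockout replicate. Abhd12, a lysophosphatidylserine lipase, rose from 467, 482 and 495 CPM to 806 and 735 CPM (log2 fold change 0.68, adjusted p = 0.00957 in edgeR). Lipa, the lysosomal acid lipase, and Pnpla2, the adipose triglyceride lipase, are strongly expressed in macrophages and were not called, with log2 fold changes of -0.09 and 0.03. With the offsets for transcript length and GC content, Lipa was called higher, at 0.36, and Pnpla2 stood at -0.29. The number called by edgeR was 1 (Mgll) without heterozygous replicate 1 and 0 without heterozygous replicate 2, with 7 at an unadjusted p under 0.05. Over all genes, 463 of 15972 and 335 of 16022 were called in these settings, against 2698 of 16436 with all libraries.

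Of 13 other detoxifying esterases and epoxide hydrolases, 4 were called lower, 0 higher and 9 not called, with a median of -0.18. The shares over all genes tested were 10.0% lower and 6.41% higher. Ephx2, soluble epoxide hydrolase, fell from 139.5, 113 and 107 CPM to 25.7 and 38.6 CPM (log2 fold change -1.90, adjusted p = 0.00836 in edgeR). Faah, which splits fatty acid amides, had a log2 fold change of -1.87, Pon1, a plasma paraoxonase made by hepatocytes, one of -1.90, and Notum, which removes the lipid from Wnt proteins, one of -2.36. Ephx1, microsomal epoxide hydrolase, and Pon2 were not called by edgeR, with log2 fold changes of 0.28 and 0.12. Ephx1 was called higher by DESeq2 and with upper quartile scaling, and Pon2 was called higher, at 0.66, with offsets for transcript length and GC content. The count called was 2 (Ephx2 and Faah) without heterozygous replicate 1 and 2 without heterozygous replicate 2. Of 15 hepatocyte transcription factors, 7 were called lower and 0 higher by edgeR, with a median of -1.62. The count called lower was 0 without heterozygous replicate 1 and 0 without heterozygous replicate 2, with 9 in each at an unadjusted p under 0.05, and 4 without knockout replicate 2. Over all genes, 344 and 248 were called lower without heterozygous replicates 1 and 2, against 1644 with all libraries. Hnf4a fell from 47.7, 49.2 and 35.7 CPM to 8.72 and 15.2 CPM (log2 fold change -1.89, adjusted p = 0.0143 in edgeR), and Ppara fell by 2.25 on the log2 scale (edgeR adjusted p = 0.0136). Foxa2 and Nr1i2 had log2 fold changes of -2.13 and -2.14, and Cebpa, which macrophages also express, was not called, at -0.24, but was called lower, at -0.65, with the offsets.

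**Figure D5:**
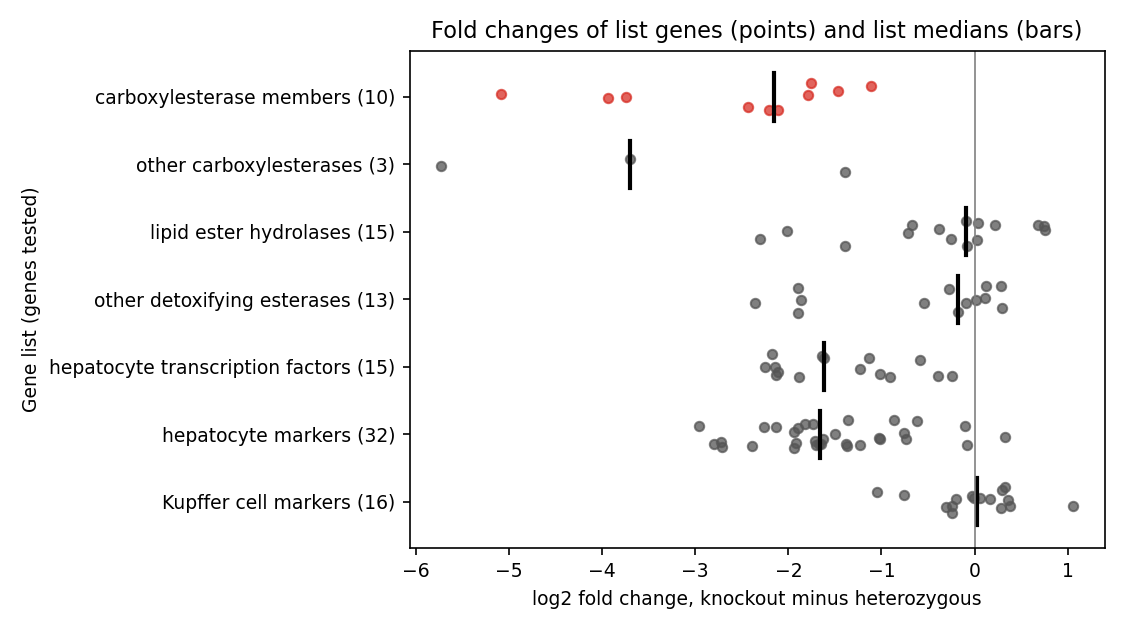
Log2 fold change, knockout minus heterozygous, of each tested gene (points) and the median (bar) of 7 gene lists, with the number of genes tested in brackets. The members have a median of -2.16, the hepatocyte markers -1.66, the lipid ester hydrolase list (with the regulators G0s2 and Abhd5) -0.09 and the Kupffer cell markers 0.03.

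Outside the family, the genes whose profile over the 5 libraries was most like the members' mean profile were Acsm1, Mttp, Gc, Cfi, C4bp, Slc27a2, Ugt1a5 and Aadac. Ugt1a5 stood at 4.65, 4.40 and 4.76 CPM in heterozygous and 0.053 and 0.814 CPM in knockout libraries. Its place thus depends on the 0.5 CPM added before log2. Likeness was the root mean square difference of centred log2 levels over 5 libraries, and it ran from 0.0607 for Acsm1, a medium-chain acyl-CoA synthetase, to 0.124 for Aadac. Mttp, the microsomal triglyceride transfer protein that loads lipid onto apolipoprotein B, stood at 0.0647 and had levels of 88.3, 89.1 and 76.7 CPM against 9.15 and 22.5 CPM. The members' own values were 0.0698 for Ces1e, 0.159 for Ces1d and 0.208 for Ces2e, up to 1.08 for Ces3b. The mean profile was thus nearest to that of Ces1e, and Ces3b was the member farthest from it.

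Markers of other cells were also compared between the groups, and their part in the carboxylesterase differences was not tested. Over all genes tested, 10.0% were called lower and 6.41% higher, and counts near these shares are not read as a result. Of 12 sinusoidal endothelial markers, 4 were called lower and 0 higher, with sums of 1310 to 1545 CPM in the heterozygous and 1159 and 1208 CPM in the knockout libraries. Of 10 stellate cell markers, 4 were called lower and 1 higher, with sums of 115 to 123 CPM against 69.2 and 76.1 CPM. None of the 6 cholangiocyte markers was called by edgeR, with sums of 5.59 to 12.6 CPM against 4.22 and 44.0 CPM, and Tspan8 was at 0 in heterozygous replicate 3. Of 7 tested neutrophil markers, 4 were called higher, with sums over the 10 listed of 74.6 to 80.1 CPM against 345 and 134 CPM, and Mpo, Ngp, Ltf and Camp were each at 0 in at least 1 library. The 4 include Ngp, with 0, 26 and 0 counts in heterozygous and 5905 and 36 in knockout libraries. Ngp passed the filter on low counts through the knockout libraries, where it was higher, so nothing is read from its call. Of 10 lymphocyte markers, 1 was called higher, with sums of 130 to 178 CPM against 293 and 172 CPM. Of the 16 Kupffer cell markers, 3 were called higher and 2 lower: Marco rose (log2 fold change 1.06), while Cd163 fell by 1.05 on the log2 scale and C6 fell by 0.76. The Kupffer cell sum of knockout replicate 3 (74730 CPM) was close to that of heterozygous replicate 3 (74410 CPM). Csf3r made up most of the neutrophil sum in the heterozygous libraries (63.0, 71.5 and 68.0 CPM) and in knockout replicate 3 (102 CPM). Ngp and Ltf stood at 78.3 and 40.5 CPM in knockout replicate 2 but at 0.465 and 0 CPM in knockout replicate 3.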

How the data were processed

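Poly-A RNA of 5 Kupffer cell samples (3 heterozygous, 2 knockout, grouped by title) was amplified and sequenced, per the labels' protocols. The authors deposited raw read counts per gene, made with HTSeq 0.5.4, and DESeq 1.18.0, R 3.1.2 and mm9 are named beside it, per the submitters' processing notes. No aligner, annotation release or strand setting is given in the sources used here. Entries that name no gene, 40.0% to 48.6% of everything counted, were left out of library sizes. Genotypes were compared with edgeR 4.0.16 in R 4.3.3 (filterByExpr, TMM, quasi-likelihood test over 16436 genes, Benjamini-Hochberg adjusted p under 0.05, 3 residual degrees of freedom), and the SE is the log2 fold change divided by the square root of F. The code was tested on simulated data. Replicates differed by more than counting noise (a chi-square of at least 30.6 per degree of freedom). With 3 against 2 samples an exact permutation test of 1 value cannot go below p = 0.1, and sums are given without a test. Each carboxylesterase was named, and of each other list up to 4 genes called, by smallest p, and 2 not called, by highest level, of which the text gives part; profile neighbours had a mean of at least 1 CPM, with 0.5 CPM added before log2. Fga, Apoc3, Apoa2, Ttr, the minor carboxylesterases with few counts and markers at 0 were named for their values. The members and all gene lists were chosen with earlier results of these data known. Sequences and transcript lengths came from GENCODE M21 and RefSeq, on a later build than mm9, so the files' own coordinates are not used here.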

Additional observations from a re-analysis of the deposited data

How the results depend on the processing

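The log2 fold change of each of the 10 members kept its sign under all 14 alternatives, from -5.59 to -4.72 for Ces3b and from -1.93 to -0.59 for Ces2a, and the widest moves came from leaving out a knockout library. DESeq2 called 4629 genes, 2606 of them lower, against 2698 and 1644 in edgeR, and called all 10 members lower. Offsets for transcript length and GC content gave 1702 called genes. Leaving out 1 library at a time gave 335 to 2540 called genes and 248 to 1508 called lower, fewest without heterozygous replicate 2. The counts called lower were then 3 to 10 members, 0 to 3 other carboxylesterases and 10 to 32 hepatocyte markers, and 0 to 5 lipid ester hydrolases and 2 to 4 detoxifying esterases were called. Without a knockout library, the lone one is assumed to vary like the heterozygous ones. The deviations of same-numbered samples had correlations of -0.06 for both numbers. With only 2 knockout libraries these values cannot exclude a shared origin, so whether the number marks a pairing cannot be told. With the replicate number as a block, which leaves 1 residual degree of freedom, edgeR called 1 gene (lower), and 0 members, 0 other carboxylesterases, 0 lipid ester hydrolases, 0 detoxifying esterases and 0 hepatocyte markers. At an unadjusted p under 0.05 these were 9, 3, 5, 4 and 26. Ces1g was called lower by DESeq2, limma-voom, the filter of 1 CPM in 2 samples and without either knockout replicate, and Ces2a by DESeq2 and without knockout replicate 3. Where a count moved, the cause was not tested. Depth did not limit the members, whose lowest value rests on 90 counts.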
